A study of Mus musculus with 2031 samples.

Results

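The genes of cholesterol and fatty acid synthesis were followed across the cell types of adult mouse cortex and hippocampus. They were chosen by name, as 32 of the 49671 gene identifiers in the counts of each cell. They were divided by role into 7 genes of the mevalonate part of the pathway, 11 genes of squalene and the sterol rings, 6 genes of its control and 8 genes of fatty acid synthesis. Each of the 32 had a single gene identifier, and all were found in the table of all cells, which lists 49568 genes.

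The cells came from C57BL/6J mice at postnatal day 56. Each of the 2 cortical suspensions (1C and 2C) was made from 1 animal of the same litter, and each of the 2 hippocampal suspensions (1H and 2H) was pooled from 4 littermates, so that area, litter and pooling cannot be told apart. No treatment or genetic change was applied. Live cells that bound the ACSA-2 antibody to the astrocyte protein ATP1B2 and lacked the oligodendrocyte antigen O1 were sorted 1 per well and read by Smart-seq2, a full-length method without molecular tags, and its counts are of reads, with no way to count molecules. The cells that are not astrocytes are those that passed this gate. The authors divided the astrocytes into 5 subtypes, AST1 to AST5, by clustering these same counts, and named mural, endothelial, neuronal, microglial and oligodendrocytic cells beside them.

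Depth ranged from 600758 to 3238215 counts per cell, with a median of 1458411. Counts were summed over the cells of each type within a suspension, so that suspensions and not cells served as replicates. Levels are in CPM, in which the reads of a gene are taken relative to all reads of the sum, after TMM scaling of its library size within the subtype or the class sums; sums under 5 cells were scaled by library size alone. Summed markers followed the labels: 8 astrocyte genes gave 60790 to 65940 CPM in the 4 astrocyte sums, 2951 to 3300 in mural cells, 526.6 to 751.7 in endothelial cells and 277.4 to 304.7 in neurons. The endothelial sums also held mural genes, at 7796 to 25080 CPM (median 13950) for 7 markers beside 12800 to 15480 CPM for 6 endothelial markers. These ranges include the sum of 2C, which held 3 cells and entered no fit. In the neuronal sums Rbfox3 and Gad1 had no reads, and the 6 neuronal markers together reached 1842 to 2073 CPM.

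Cholesterol does not cross the blood-brain barrier, so the brain makes its own, and astrocytes are known as a source of it for neurons in the adult. Synthesis runs from acetyl-CoA through mevalonate to squalene, which is closed into a ring and trimmed to cholesterol. When sterols are low, SCAP carries the SREBP factors (Srebf1, Srebf2) out of the endoplasmic reticulum to be cut free, and INSIG proteins hold SCAP back when sterols are high. SREBP factors act on promoters through the sterol regulatory element, usually together with NF-Y and Sp1.

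The sequences of RefSeq promoters (GRCm38.p6, from 250 bases before to 50 after the start of the transcript) were searched on both strands for the sterol regulatory element TCACNCCAC, the NF-Y box CCAAT and the Sp1 box GGGCGG. Promoters were found for 25 members, and a gene was counted if any of its promoters held the motif. Fdps, Fdft1, Sqle, Stard4, Scd1, Scd2 and Fads1 had no entry. The NF-Y box was present in 21 of 25 members (84%) and in 41.1% of all 27025 genes with a promoter. The Sp1 box was also present in 21 of 25 members, against 38.2% of all genes. The full sterol regulatory element was found in Hmgcs1 alone among the members (4.0%), and in 1.44% of all genes. A match is a description of letters and not a test of binding or of control by SREBP factors. Motifs of members on which the results turn follow, 5′ to 3′ on the strand of the gene, with the motif in capitals and position 0 at the first base of the transcript; ATTGG is CCAAT on the opposite strand. None of those printed overlaps another match.
Hmgcs1, sterol regulatory element at -137 to -129, chr13:119690204-119690233, plus strand: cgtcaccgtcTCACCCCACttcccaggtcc
Hmgcs1, NF-Y box at -176 to -172, chr13:119690163-119690192, plus strand: cgccgtcccgccATTGGcaggcttgttctc
Msmo1, NF-Y box at -96 to -92, chr8:64733657-64733686, minus strand: ccttagcacggaCCAATcactgcacggcga
Insig1, NF-Y box at -216 to -212, chr5:28071184-28071213, plus strand: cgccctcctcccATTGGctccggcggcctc
Elovl5, NF-Y box at -71 to -67, chr9:77917282-77917311, plus strand: tatcgccccaggATTGGttccaaggccgca
Tm7sf2, NF-Y box at -47 to -43, chr19:6067880-6067909, minus strand: ctcccagcgctgATTGGctactgtgctggg

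The level of each member in astrocytes was first compared per kilobase of exon, with all annotated exons of a gene merged over its transcripts. This length can exceed that of the transcripts present (it was 17.07 kb for Acaca), so ranks between genes are approximate. Msmo1, which removes the C4 methyl groups of the sterol ring, ranked highest at 486.1 ± 110.1 CPM per kb (SD, n = 4 suspensions). It was followed by Elovl5, an elongase of polyunsaturated fatty acids, at 400.1 ± 37.3 CPM per kb and by the desaturases Fads2 (307.7 ± 39.8) and Scd2 (294.7 ± 50.5). Insig1 stood at 273.5 ± 25.7 CPM per kb and Hmgcs1, an enzyme of the mevalonate part, at 188.1 ± 22.01. The ranges of Msmo1 and Elovl5 overlapped, as did those of Fads2, Scd2 and Insig1, so their order within these groups is not fixed. At the other end lay Acaca, the first committed enzyme of fatty acid synthesis, at 3.08 CPM per kb, Stard4, a cytosolic carrier of cholesterol, at 3.49, and Fdps, which joins isoprene units, at 5.95. Fasn, which builds the fatty acid chain, was at 31.5 CPM per kb and Scd1, another stearoyl-CoA desaturase, at 28.55. Exon lengths were taken from an annotation of the same genome build that is later than the one the authors counted with, and overlapping genes share 26.7% of the exon bases of Fdps and 18.3% of those of Fdft1. The kit does not mark strand, so reads in shared bases cannot be assigned to either gene.

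**Figure D1:**
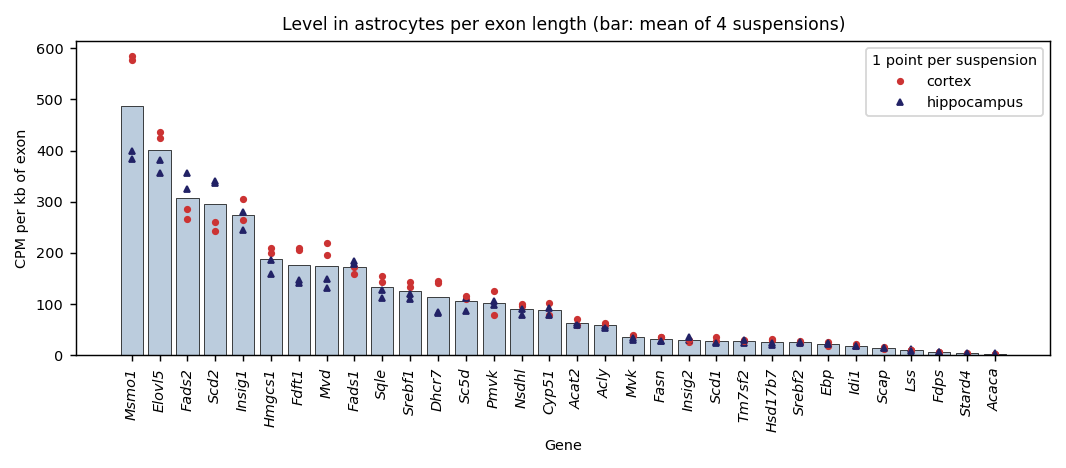
Level of each of the 32 genes in astrocytes, in CPM per kilobase of exon (y axis), as the mean of 4 suspensions (bars) with each cortical (circles) and hippocampal (triangles) suspension. Msmo1 was highest at 486.1 CPM per kb and Acaca lowest at 3.08.

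The share of cells with a read was counted next. Msmo1 was found in 94.6% of 1781 astrocytes, Insig1 in 93.1%, Scd2 in 91.8%, Fads2 in 85.2% and Elovl5 in 83.3%. This share did not follow the level per kilobase throughout: Fdps and Idi1, an isomerase, were found in 41.9% and 47.4% of astrocytes, Mvd and Pmvk, both of the mevalonate part and higher per kilobase, in 37.5% and 31.3%. Acaca was found in 17.9%, Ebp, the sterol isomerase, in 9.99% and Stard4 in 5.28%. When every cell was thinned to 500000 counts these shares moved little, to 94.4% for Msmo1 and 17.4% for Acaca.

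To determine how far these genes separate astrocytes from the other sorted cells, class sums were compared. Most members were lower outside astrocytes: the 4 mural sums lay below all 4 astrocyte sums for 27 of 32 members (84.4%) and above them for none, where 33.6% of all 17404 genes tested lay below and 6.10% above. The 3 fitted endothelial sums lay below astrocytes for 28 of 32 members (87.5%) and above for none, against 45.2% and 6.52% of all genes. The 2 neuronal sums also lay below for 28 of 32 and above for none, against 49.1% and 10.1% of all genes. With library size alone, an alternative added after the values were seen, the counts below astrocytes were 26 in mural cells, 26 in endothelial cells and 24 in neurons (27%, 38.4% and 39.3% of all genes), and Insig2 and Acly lay above astrocytes in both neuronal sums (18.7% of all genes). With TMM scaling all 7 mevalonate genes and 10 of 11 genes of squalene and the sterol rings were among those below astrocytes in mural cells. With library size alone Pmvk of the mevalonate genes overlapped. In sums of cells, fewer cells with the RNA and less RNA per cell cannot be told apart.

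Msmo1 had 3547, 3596, 2446 and 2358 CPM in the astrocytes of 1C, 2C, 1H and 2H. Its mural sums held 107.9, 146.8, 156.1 and 196.98 CPM in the same order. Every astrocyte sum was far above every mural sum. Scd2, the main stearoyl-CoA desaturase of the brain, had 1426, 1323, 1836 and 1857 CPM in astrocytes against 91.97, 78.3, 161.5 and 160.8 in mural cells. Elovl5 had 1539, 1496, 1256 and 1346 CPM in astrocytes against 165.7, 84.8, 277.8 and 124.9 in mural cells. Again no mural sum came near an astrocyte sum. Insig1 had 944.7, 817.0, 865.6 and 756.3 CPM in astrocytes and 108.1, 42.8, 72.4 and 46.9 in mural cells. Hmgcs1 had 916.4, 958.0, 726.1 and 855.6 CPM against 15.3, 111.3, 169.03 and 293.7. Fads2 had 877.2, 940.5, 1171 and 1067 CPM against 118.0, 25.9, 100.98 and 129.4. The classes were separate for each gene, although the mural values of Hmgcs1 spread widely.

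The edgeR test on these sums, which held 6 to 499 cells and had a biological coefficient of variation of 1.61, called few members. In mural cells 3 of 32 members were lower (9.38%) and none higher, while 12.7% of all genes were called lower and 2.37% higher; by this count the members were not called more often than genes at large. The 3 were Scd2 (log2 fold change -3.79, SE 0.45, adjusted p = 0.00115), Elovl5 (-3.15, SE 0.44, adjusted p = 0.00276) and Insig1 (-3.63, SE 0.85, adjusted p = 0.0301). Msmo1 had a log2 fold change of -4.39 (SE 1.45) and an adjusted p of 0.0714. The median over the 32 members was -3.28, beside -1.36 over all genes. With the suspension as a block 2 members and 1.32% of all genes were lower, and with a suspension left out 1 to 3 members and 0.628% to 1.01% of all genes. Insig1 lost its call when any of the suspensions was left out (adjusted p up to 0.140), with the suspension as a block (adjusted p = 0.0823) and with no filter on low counts (adjusted p = 0.0556), and Elovl5 lost it without 1C (0.0778) or 2H (0.0514). In a fit of astrocyte and mural sums alone, added after the values were seen, 12 members were lower (37.5%) and none higher, against 22.5% of all genes lower and 4.92% higher. Among them were Msmo1 (-4.28, SE 0.28, adjusted p = 3.07e-04), Dhcr7 (-3.58, SE 0.25, adjusted p = 3.36e-04) and Sqle (-3.13, SE 0.38, adjusted p = 0.00367).

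Scd2 and Elovl5 were also lower in endothelial cells and in neurons. In endothelial cells these were 2 of 32 members (6.25%), with none higher, against 4.02% of all genes lower and 1.59% higher. In neurons they were again 2 of 32, with none higher, against 2.65% of all genes lower and 0.201% higher. In the 3 fitted endothelial sums Scd2 had 34.5 CPM (1C), 188.9 (1H) and 109.5 (2H), with a log2 fold change of -4.22 (SE 0.53, adjusted p = 0.00189). Elovl5 had 197.1, 335.1 and 172.7 CPM there, with -2.65 (SE 0.49, adjusted p = 0.0130). All lay below every astrocyte sum. The call of Elovl5 was lost without 1C (adjusted p = 0.165) or 2H (0.0895). The mural genes in the endothelial sums are given above, and their part in these values was not tested. In the neuronal sums of 1H and 2H Scd2 had 63.7 and 203.7 CPM (-4.09, SE 0.64, adjusted p = 0.00539) and Elovl5 90.4 and 38.3 CPM (-4.60, SE 0.65, adjusted p = 0.00306). Each of these neuronal values lay below every astrocyte sum. With 1 neuronal sum left, Scd2 lost its call without 1H (adjusted p = 0.0520) or 2H (0.0749) and Elovl5 without 2H (0.102).

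Members called in other contrasts were low in these classes too. Sqle, the first oxygenase of the pathway, had 796.7, 857.2, 618.2 and 705.6 CPM in astrocytes (1C, 2C, 1H, 2H), 46.7 to 134.2 in mural cells and 0 and 0.05 in neurons. Tm7sf2, a sterol reductase, had 101.7 to 131.7 CPM in the 4 astrocyte sums, lowest in 1H, and at most 2.35 in mural cells. Acaca had 55.0, 43.5, 62.6 and 48.99 CPM in astrocytes and at most 12.7 in mural cells. All 3 genes were separate between astrocytes and mural cells. Tm7sf2 and Acaca each had a read in 3 of the mural cells (2.24%), against 29.9% and 17.9% of astrocytes.

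A few members did not follow this pattern. Insig2, the second INSIG gene, had 87.2 to 122.6 CPM in astrocytes and 70.5 to 291.4 in mural cells. Acly, which supplies cytosolic acetyl-CoA to both pathways, had 282.8 to 334.9 CPM in astrocytes, 114.7 to 311.9 in mural cells and 180.1 and 289.2 in neurons; with library size alone both neuronal sums (424.8 and 253.3) were above those of astrocytes (at most 231.6). Ebp had 40.97 to 58.9 CPM in astrocytes and 21.2 to 79.6 in mural cells. These overlapped between the classes, as did Stard4 and Scap in mural cells.

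**Figure D2:**
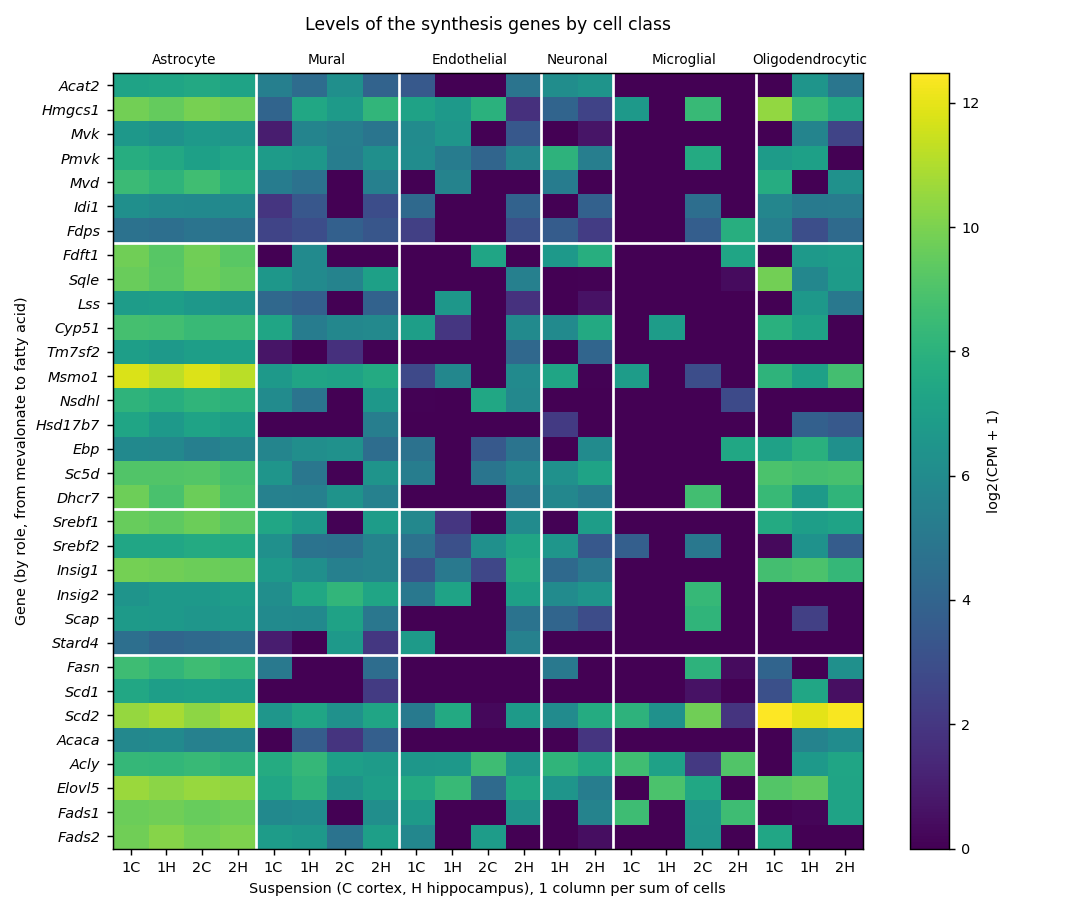
Levels of the 32 genes (rows, by role) in each sum of cells of a class and suspension (columns), as log2(CPM + 1) on the colour scale. Most genes were high in the 4 astrocyte columns, such as Msmo1 at 2358 to 3596 CPM, and Scd2 was highest in the oligodendrocytic columns. Columns of fewer than 5 cells were scaled by library size alone, the others also by TMM.

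In oligodendrocytes, which build myelin, some members lay above astrocytes and others below. Only 9 such cells were sorted (2 in 1C, 4 in 1H and 3 in 2H), so that their values are given without a test and, for astrocytes too, scaled here by library size alone. Scd2 had 5694, 3993 and 5245 CPM in these sums, against 915.1 to 1288 in the 4 astrocyte sums. Ebp had 139.3, 244.6 and 75.2 CPM, against 28.3 to 41.6. Sc5d, which acts next in the trimming of the ring, was at 491.6, 431.9 and 460.1 CPM, against 287.9 to 388.5. All 3 genes lay above every astrocyte sum on this scale; with TMM scaling of the astrocyte sums alone the range of Sc5d in astrocytes was 424.4 to 561.9. In contrast Msmo1 was at 273.6, 133.98 and 421.8 CPM and Fads2 at 163.6, 0 and 0, against at least 1600 and 620.1 in astrocytes. Insig1 was also below them (318.5 to 489.6 CPM, against 513.1 to 667.8), and Tm7sf2, Nsdhl, Insig2 and Stard4 had no read. No member but Scd2, Ebp and Sc5d lay above every astrocyte sum in each oligodendrocytic sum. The share of all genes was not counted for these cells, so the values describe single members. The 11 microglial cells had reads of Insig1, Srebf1 and Sc5d in none, which allows a share of up to 27.3% of cells. The same held for Acat2, Mvk, Mvd, Lss, Tm7sf2, Hsd17b7, Stard4 and Acaca. The other members had reads there, such as Acly at 405.3, 141.1, 3.22 and 537 CPM in 1C, 1H, 2C and 2H, against 191.9 to 231.6 in astrocytes.

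Members called in any contrast or among the 6 highest per kilobase were then followed through the 5 astrocyte subtypes. The levels of the subtypes were scaled together and apart from those of the classes, so the numbers of the 2 sets are not to be compared. No member was called by edgeR in AST1, AST2 or AST3. At an unadjusted p under 0.05 were 1, 2 and 1 of 32 members, beside 4.29%, 2.62% and 1.89% of all genes. DESeq2 and limma also called no member there. Of all genes DESeq2 called 5.2%, 4.8% and 4% in AST1, AST2 and AST3, and limma 0.0274%, 0.0603% and 0.00548%. Few of all 18233 genes were called there by edgeR: 0.0384% higher and 0% lower in AST1, 0.0110% higher and 0.0439% lower in AST2, and 0% in AST3. With the other subtypes weighted equally, 3, 4 and 5 members were called higher and none lower, Msmo1, Tm7sf2 and Acaca in each, where 5.52%, 5.09% and 4.95% of all genes were called higher. With the AST5 sums left out no member was called in the 3 subtypes, while 0.179% of all genes were higher in AST1, 0.0867% higher and 0.152% lower in AST2, and 0% in AST3. In that edgeR fit 3, 6 and 2 of 32 members were at an unadjusted p under 0.05, beside 1025, 1050 and 699 of 18463 genes. The 6 in AST2 were Msmo1, Dhcr7, Insig1 and Fasn, which were higher, and Scd2 and Fads2, which were lower.

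Msmo1 ranged from 1898 to 2456 CPM in AST1 (mean 2200 ± 275.6), from 2174 to 3147 in AST2 (2661 ± 512.8) and from 2441 to 2575 in AST3 (2490 ± 58.4; SD, n = 4 in each). Insig1 was at 573.9 ± 94.4, 845.9 ± 73.8 and 677.3 ± 211.8 CPM in AST1, AST2 and AST3 (SD, n = 4). The AST2 values of Insig1, 865.9, 799.4, 941.0 and 777.2 CPM in 1C, 2C, 1H and 2H, lay above all values of AST1 (594.4, 442.5, 667.5 and 591.3) and overlapped those of AST3. Scd2 was lower in AST2, at 1010, 994.3, 718.4 and 952.7 CPM, than in AST1, at 1302, 1135, 1521 and 1520, without overlap, but its contrast in AST2 did not pass (log2 fold change -0.50, SE 0.16, unadjusted p = 0.00747, adjusted p = 1).

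AST4 cells were nearly all hippocampal (41 in 1H, 48 in 2H and 2 in 1C). Both fitted AST4 sums of the sterol ring enzymes Msmo1, Tm7sf2, Sc5d and Dhcr7, of Srebf1 and of Elovl5 lay below every sum of AST1 to AST3 with either scaling, and all 7 mevalonate genes overlapped, while the edgeR contrast with all other subtypes called no member. Msmo1 had 657.1 and 511.2 CPM in the AST4 sums of 1H and 2H, against 1898 to 3147 in the 12 sums of AST1 to AST3. Within the suspensions its log2 difference from the mean of AST1 to AST3 was -1.80 and -2.09. Elovl5 had 438.1 and 406.0 CPM against 1034 to 1383. Both AST4 sums of both genes lay far below all sums of AST1 to AST3. Dhcr7, the last step of cholesterol synthesis by the Kandutsch-Russell route, had 183.9 and 85.4 CPM against 267.7 to 813.7. Tm7sf2 had 37.7 and 20.04 CPM against 63.02 to 145.4, and Fads2 501.5 and 498.3 against 546.4 to 1045. Srebf1, a gene of the SREBP factors that drives fatty acid synthesis, had 218.9 and 293.03 CPM against 352.9 to 731.4, and Sc5d 247.2 and 194.9 against 328.98 to 573.9. These genes were again separate from AST1 to AST3. Scd2 (1122 and 1037 CPM), Fads1, the delta-5 desaturase (787.5 and 573.5), and Hmgcs1 (581.4 and 362.9) overlapped with AST1 to AST3. Acaca, at 44.4 and 1.75 CPM, overlapped as well, in 1 of its 2 sums. Sqle had 346.2 and 225.4 CPM and Insig1 464.7 and 214.5, each with 1 value inside the range of AST1 to AST3.

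In all, 10 of 32 members (31.2%) were lower in both AST4 sums than in every sum of AST1 to AST3 and none were higher, where 4.82% of all genes were lower and 6.93% higher. With library size alone the count was 6 (3.64% of all genes lower, 10.5% higher), since Nsdhl, Scap, Fasn and Fads2 then overlapped. By role the 10 with TMM scaling were 0 of 7 mevalonate genes, 5 of 11 genes of the sterol rings (Tm7sf2, Msmo1, Nsdhl, Sc5d and Dhcr7), 2 of 6 of control (Srebf1 and Scap) and 3 of 8 of fatty acid synthesis (Fasn, Elovl5 and Fads2). The edgeR contrast of AST4 with all 4 other subtypes nevertheless called no member (0.110% of all genes were called higher and 0.527% lower). At an unadjusted p under 0.05 were 3 of 32 members, beside 7.8% of all genes. DESeq2 called 2 members, both lower, where it called 8.3% of all genes lower and 3.2% higher, and limma called 5, of which 4 were lower and Lss, the cyclase, higher, where it called 1.65% of all genes lower and 11.4% higher. Msmo1 came to -1.72 (SE 0.40, adjusted p = 0.0932), and it passed in DESeq2 and in limma. In the edgeR alternatives that kept AST5 and both AST4 sums it did not pass (adjusted p from 0.104 to 0.277). Without 1H or 2H, which leaves a lone AST4 sum, it came to -1.99 and -1.42. This contrast takes the mean of log levels, AST5 included, and 51.1% of the genes tested had no reads in the AST5 sums; 16.3% of genes, Tm7sf2 and Acaca among them, obtained no test value in AST4.

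With the AST5 sums left out, a fit that was added after the values had been seen, 7 of 32 members were lower in AST4 (21.9%) and none higher, against 2.18% of all genes lower and 0.628% higher. These were Msmo1 (log2 fold change -1.86, SE 0.13, adjusted p = 7.37e-06), Elovl5 (-1.37, SE 0.11, adjusted p = 1.81e-05), Dhcr7 (-1.87, SE 0.355, adjusted p = 0.0120), Tm7sf2 (-1.79, SE 0.40, adjusted p = 0.0330), Srebf1 (-0.93, SE 0.21, adjusted p = 0.0369), Fads2 (-0.75, SE 0.17, adjusted p = 0.0371) and Sc5d (-0.91, SE 0.21, adjusted p = 0.0408). Scd2 came to -0.155 (SE 0.17), Fads1 to 0.11 (SE 0.17) and Hmgcs1 to -0.03 (SE 0.42). Since the subtypes were found by clustering these counts, such p-values describe the clusters and are not independent of their choice. The 8 astrocyte markers together were at 18040 to 28700 CPM in AST4 against 36240 to 55630 in AST1 to AST3, while the cells of AST4 did not have fewer genes with a read (medians of 2396 in 1H and 2592.5 in 2H, where AST1 had 1969 and 2003.5). The part of this in the values of the members was not tested.

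**Figure D3:**
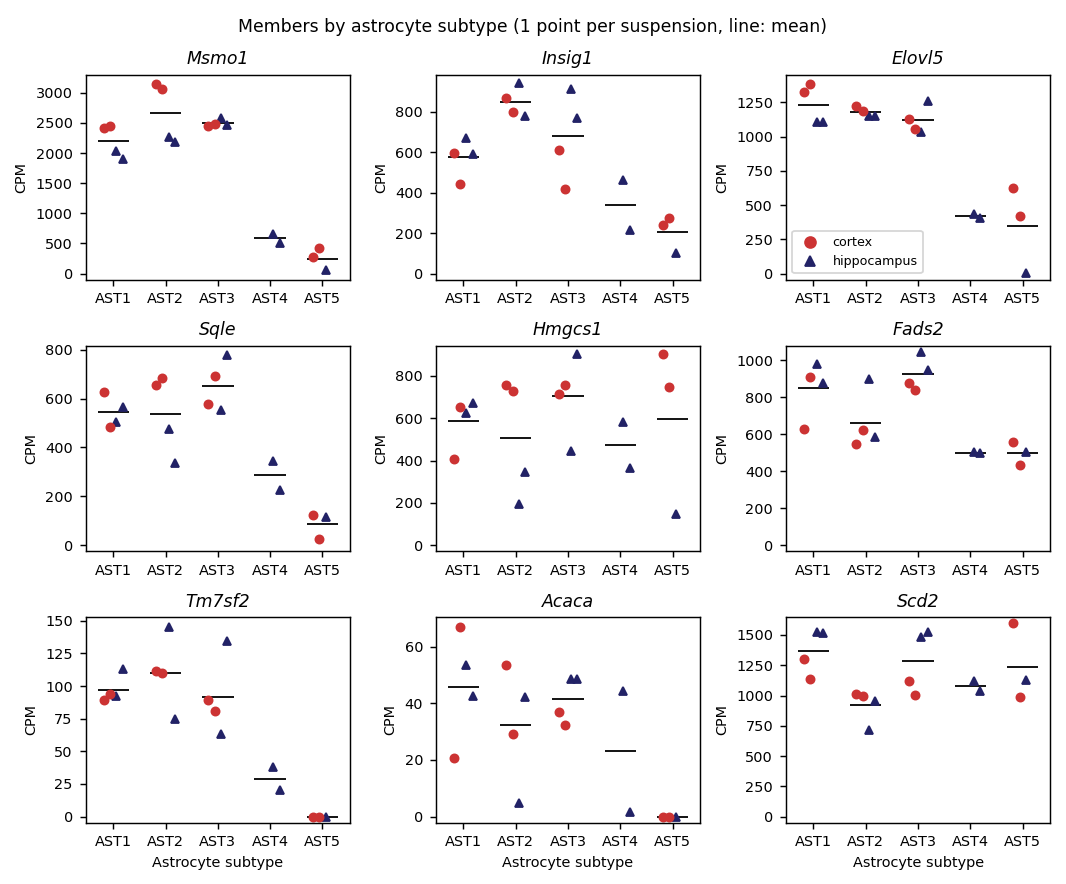
Levels of 9 genes in CPM (y axes, from 0) by astrocyte subtype, with 1 point per suspension (circles cortex, triangles hippocampus) and the mean as a line. The points of Msmo1, Elovl5 and Tm7sf2 lay lower in AST4 and AST5 than in AST1 to AST3, and Scd2 lay between 718.4 and 1601 CPM over all 17 sums plotted.

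AST5 had the fewest cells (8, 10 and 6 in the fitted sums of 1C, 2C and 1H, and 2 more in 2H). Of the members 6 of 32 (18.8%) were lower and none higher, but 16.6% of all genes were also called lower and 0.356% higher, so that the members were called lower about as often as genes at large. All 3 AST5 sums lay below every sum of AST1 to AST3 for 9 of 32 members (28.1%) and above for none, against 9.81% and 0.653% of all genes. With library size alone they were below for 6 and above for 3 members (Fads1, Scd2 and Idi1), against 8.17% and 3.33% of all genes. Msmo1 had 269.1, 418.7 and 64.7 CPM in 1C, 2C and 1H (log2 fold change -3.41, SE 0.38, adjusted p = 2.71e-05). Sqle had 122.6, 24.4 and 116.8 CPM (-2.65, SE 0.43, adjusted p = 8.22e-04). Insig1 had 240.4, 275.8 and 102.3 CPM (-1.64, SE 0.34, adjusted p = 0.00500). All 3 genes lay below every sum of AST1 to AST3, Insig1 only with TMM scaling. Elovl5 had 623.9, 421.1 and 5.02 CPM, also below every sum (1034 to 1383); its contrast did not pass in edgeR (-1.99, SE 0.80, adjusted p = 0.115), while DESeq2 and limma called it. Fads2 had 557.4, 431.8 and 503.2 CPM (-0.60, SE 0.15, adjusted p = 0.0166), of which 1C overlapped with AST2; its call was lost under 7 of 11 alternatives. Insig1 lost its call without 1C (adjusted p = 0.0618).

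Tm7sf2 and Acaca had no reads in the fitted AST5 sums, and their fitted changes give no size (edgeR adjusted p = 2.01e-06 and 7.30e-04). Tm7sf2 was seen in 0 of 26 AST5 cells, which allows a share of up to 11.5%, against 29.1% of AST1, 30.6% of AST2 and 35.2% of AST3 cells. Acaca was seen in 1 of 26 cells (3.85%), in 2H, against 17.7% to 18.9% in AST1 to AST3. Such limits cover counting error only.

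Not all members were low in AST5. Scd2 had 1601, 991.3 and 1125 CPM in 1C, 2C and 1H, of which 1C was above and the others inside the range of AST1 to AST3 (718.4 to 1527). Fads1 had 1045, 1302 and 507.2 CPM, of which 2 values exceeded all of AST1 to AST3 (429.6 to 721.5). The contrast of Fads1 did not pass in edgeR (0.59, SE 0.23, adjusted p = 0.101), while DESeq2 and limma called it. Hmgcs1 had 903.5, 745.7 and 145.7 CPM. Like Elovl5, it was lowest in the sum of 1H, which held the fewest cells of the 3. AST5 cells had fewer genes with a read (medians of 1831, 1405 and 1681.5 in 1C, 2C and 1H) than AST2 cells (2155, 2072 and 1818). The oligodendrocyte list, at 299.5 to 1453 CPM over the 4 sums with Mog and Mag at 0, overlapped with that of AST1 to AST3 (310.4 to 777.9). The 8 astrocyte markers together were at 26780 to 48440 CPM over the 4 AST5 sums (median 29370), against 36240 to 55630 in AST1 to AST3. The part of these in the values of the members was not tested.

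**Figure D4:**
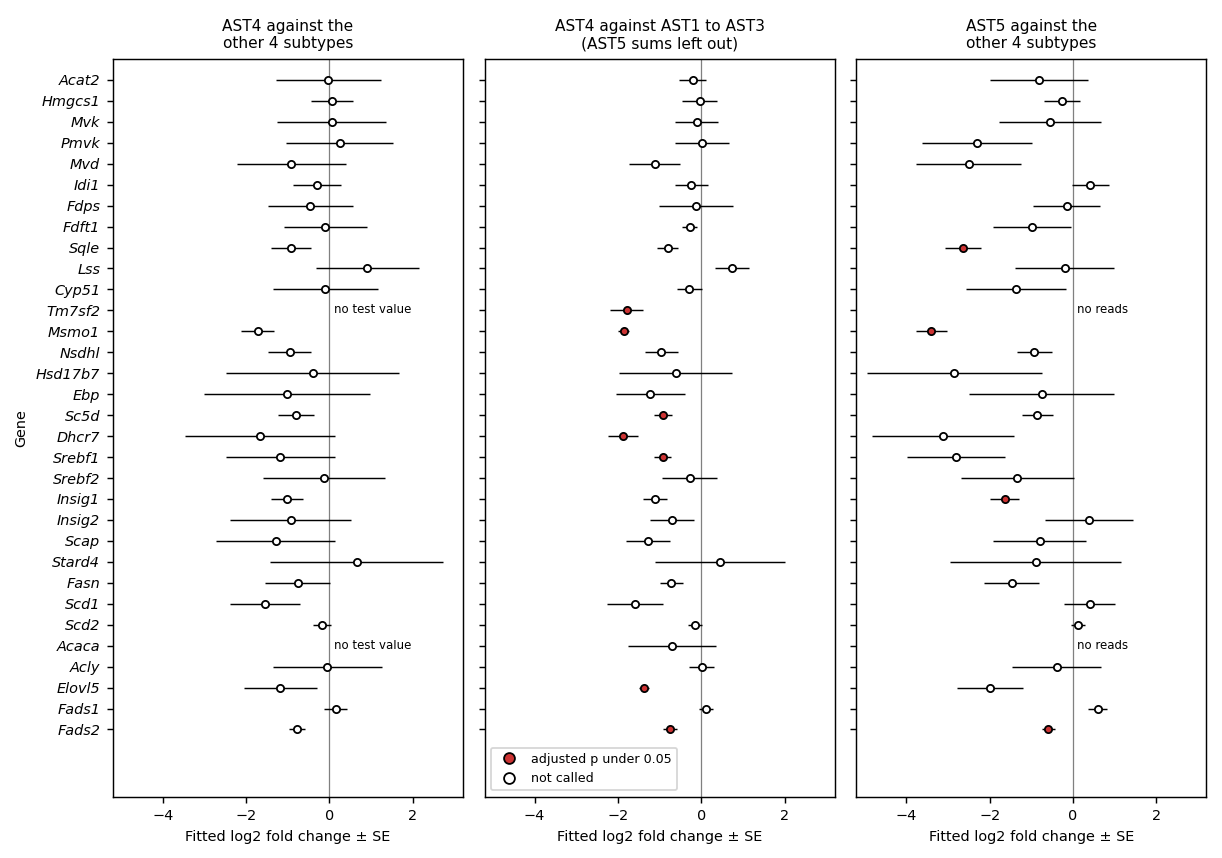
Fitted log2 fold changes with SE (x axes) of the 32 genes (y axis) in AST4 against all other subtypes, in AST4 with the AST5 sums left out and in AST5; filled points had an adjusted p under 0.05. None were called in AST4 against all others, 7 with AST5 left out and 6 in AST5, all of them lower. Of the 6, Tm7sf2 and Acaca had no reads in AST5 and are marked so in place of a point. In AST4 against all others these genes had no test value and are marked so too.

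Brain areas were compared with the subtype in the fit. No member passed the test between hippocampus and cortex (edgeR, 0 of 32, and no gene of 18233 was called), with 1 member and 3.64% of all genes at an unadjusted p under 0.05. The member was Msmo1, at -0.56 (SE 0.25, p = 0.0398, adjusted p = 1). DESeq2 and limma called no member either. Of all genes DESeq2 called 1.5% higher and 3.5% lower in hippocampus, and limma 0.011% and 0.0439%. The log2 median in the edgeR fit was -0.20 over the members and -0.27 over all genes. When the AST5 sums were left out 0 members were called, and 0.0704% of all genes were higher and 0.0162% lower in hippocampus. Msmo1 then came to -0.245 (SE 0.084). In that fit 3 members and 949 of 18463 genes were at an unadjusted p under 0.05.

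The levels of all astrocytes were compared as well. In all astrocytes of a suspension together, both hippocampal sums were below both cortical sums for 14 of 32 members (43.8%; 22.6% of all genes) and above them for 4 (12.5%; 22.3% of all genes). The edgeR fit of these 4 sums called no member and no gene of 19160. With library size alone the counts were 15 and 3 (23.7% and 21.5% of all genes), with Fdps also below and Fads1 overlapping. Those below were 3 of 7 mevalonate genes (Mvd, Mvk and Hmgcs1), 6 of 11 genes of squalene and the sterol rings (Fdft1, Sqle, Hsd17b7, Nsdhl, Msmo1 and Dhcr7), 1 of 6 of control (Srebf1) and 4 of 8 of fatty acid synthesis (Acly, Fasn, Elovl5 and Scd1). Those above were Insig2 of control and Fads1, Fads2 and Scd2 of fatty acid synthesis. Dhcr7 was at 839.7 and 818.3 CPM in cortex and 481.0 and 495.0 in hippocampus. For Dhcr7 this did not hold within the subtypes. Its areas overlapped in AST1 (log2 difference of hippocampus from cortex -0.23) and AST2 (-0.25), and both hippocampal sums were above the cortical ones in AST3 (0.24). Sqle and Hmgcs1 overlapped between areas in AST1 and AST3 and were lower in hippocampus without overlap in AST2 (-0.72 and -1.46). Msmo1 and Elovl5, which ranked highest per kilobase, were lower in hippocampus without overlap in AST1 (-0.31 and -0.29) and AST2 (-0.48 and -0.06). Both overlapped between areas in AST3. AST2 made up 10 and 22 cells of the hippocampal suspensions and most of its 555 cells were cortical, and the part of such shares in these sums was not tested. Of the 14 members only Fdft1, which makes squalene, was lower in hippocampus with no overlap in each of AST1 (488.3 against 684.5 CPM on average), AST2 (390.4 against 680.5) and AST3 (530.8 against 656.1). The share of all genes that did so was not counted, and these sums hold the same cells as those by which the 14 were picked. The fitted difference of Fdft1 was -1.02 (SE 0.72, adjusted p = 1). With the AST5 sums left out it was smaller, at -0.524 (SE 0.127, edgeR adjusted p = 0.4435). With 2 suspensions per area an exact test over suspensions cannot reach the usual limits.

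Other genes of lipid synthesis, from a list of 43, were examined in the same fits. In AST4, 4 of 42 tested were lower and none higher (0.527% of all genes were lower and 0.110% higher), all of them in the making or activation of long fatty acids. Elovl2, the elongase after Elovl5 on the way to docosahexaenoic acid, had 11.7 and 23.8 CPM in 1H and 2H against 238.7 to 503.2 in AST1 to AST3 (log2 fold change -4.64, SE 0.97, adjusted p = 0.0493). Hacd2, a dehydratase of elongation, had 51.5 and 48.5 CPM against 424.5 to 813.3 (-3.67, SE 0.37, adjusted p = 1.75e-04). Acsl6 (454.4 and 457.2 CPM against 1518 to 2473; -1.90, SE 0.15, adjusted p = 1.44e-05) and Acsl3 (479.0 and 611.1 against 999.5 to 1569; -1.41, SE 0.27, adjusted p = 0.0240) activate fatty acids. All 4 were separate from AST1 to AST3. Thrsp, a nuclear protein tied to fat synthesis, had 1419 and 1910 CPM in 1H and 2H and 156.5 in the 2 cells of 1C, against 349.2 to 844.1 in AST1 to AST3 (1.43, SE 0.31, adjusted p = 0.0552). With the AST5 sums left out Thrsp was called higher (1.61, SE 0.24, adjusted p = 0.00202), and Soat1, Rnf139, Tecr and Hacd3 were among the genes called lower beside the 4 (2.18% of all genes lower, 0.628% higher). In AST5, 13 of 42 were lower and none higher (16.6% of all genes were lower and 0.356% higher), among them Elovl2, Hacd2, Acsl3 and Acsl6 again, and Elovl1, Elovl6, Mbtps2, Acsl4 and Hacd1. Mbtps1 was also called, but its AST5 level was 802.9 CPM in the sum of 2 cells that was not fitted and 0 in the others, against at most 73.67 in AST1 to AST3. In AST1, AST2, AST3 and between areas none of 42 were called.

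Outside astrocytes, 9 of 40 tested were lower in mural cells, 5 in endothelial cells and 2 in neurons, and 1 was higher in each. Of all genes 12.7%, 4.02% and 2.65% were lower in these classes and 2.37%, 1.59% and 0.201% higher, so that 2 of 40 in neurons is close to that share. Elovl2 was lower in each, with no read in the mural and endothelial sums and 391.7 to 516.3 CPM in astrocytes. Acsl1, an acyl-CoA synthetase abundant in fat tissue, was the one that was higher in each: it had 3.96 to 9.60 CPM in astrocytes, 600.9 to 713.5 in mural cells (log2 fold change 6.68, SE 0.54, adjusted p = 1.24e-04), 173.99 to 214.5 in the fitted endothelial sums (4.87, SE 0.51, adjusted p = 6.03e-04) and 35.3 and 109.2 in neurons (3.43, SE 0.54, adjusted p = 0.00557). The endothelial sums also held mural genes, as given above, and the part of these in their Acsl1 values was not tested. Acsl3 and Acsl6 had at most 56.8 and 4.64 CPM in mural cells, against at least 1507 and 2103 in astrocytes.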

How the data were processed

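Single sorted cells of 2 cortical and 2 hippocampal suspensions were sequenced by Smart-seq2. Per the labels and the methods, the authors mapped reads with STAR 2.5.2b to GRCm38.p5 with a Gencode annotation and assigned uniquely mapped reads to genes with HTSeq. What they deposited is 1 file of counts for each cell, neither normalized nor pooled. Counts of 2030 of 2031 cells were used; 1 cell had no file, and 2027 columns of the table of all cells were not used (128 of 128 member values in 4 compared columns were equal). Reads in no gene (median 12.2% of a cell) or in several genes (4.80%) were left out. Cell types are those the authors gave; 33 cells not in the copy of their list, all of suspension 1C, and 15 without a type entered no comparison. Symbols were found for 49326 of 49671 identifiers.

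From the deposited counts, sums of at least 5 cells per type and suspension entered edgeR 4.0.16 (R 4.3.3) with TMM scaling, the low-count filter, a robust quasi-likelihood fit with a term for brain area, and Benjamini-Hochberg adjustment over all genes tested (17 sums, 18233 genes and 11 residual degrees of freedom for subtypes; 13 sums, 17404 genes and 8 for classes). All 32 members passed the filter. A gene was called at an adjusted p under 0.05. The contrast of a subtype was its log level minus the average over the other subtypes, with weights by number of cells, and each class was set against astrocytes. CPM are scaled by TMM within each set of sums; sums under 5 cells are scaled by library size alone. A log2 fold change against sums without reads gives no size; the floor was 3 counts. The fits were also run on simulated counts. No outcome of these runs is given, so they say nothing of error rates in these data.

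Subtypes of a suspension share its animals, which pairs the sums; their deviations from subtype means correlated with a median r of 0.0124 within (n = 28 pairs) and -0.00365 between suspensions (n = 86). The suspensions are separate preparations, but the p-values measure the spread left among the sums after the terms for type and brain area. Sums of the same suspension enter the fit as separate values. The p-values therefore do not measure the spread between suspensions alone, least of all for brain area. Alternatives covered DESeq2 1.42.0, limma 3.58.1 on mean log2(CPM + 1), the size factors of DESeq2, no filter, thinning to 500000 counts per cell, equal weights, the suspension as replicate block, 1 sum of all astrocytes per suspension, and each suspension left out; fits without AST5 and with astrocyte and mural sums alone, and counts of sums without overlap on library size alone, were added after the data were seen. Members named with every value are those called in any contrast and the 6 highest per kilobase in astrocytes; other genes are named beside counts or by their role, and Dhcr7, Srebf1, Sc5d, Fads1, Fdft1, Insig2, Acly, Ebp and Thrsp were given values after these were seen. The members and lists were chosen with earlier results of these data known.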

Additional observations from a re-analysis of the deposited data

Results flagged for a closer look

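Of 45 groups of 4 sums examined for the 9 genes given in full, 1 held a value far from the others, where chance alone gives about 5% of groups: Hmgcs1 in the AST1 sum of 1C was at 407 CPM, below 627 to 670 CPM in the other 3 suspensions.

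Scd2 differed between areas in opposite directions by subtype, with both hippocampal sums above both cortical sums in AST1 (log2 difference 0.32) and AST3 (0.50) and below them in AST2 (-0.26). The AST2 sums of hippocampus held 10 and 22 cells. This was looked for in the 9 genes given in full. Of the other members, Ebp, Scd1 and Lss also were lower in hippocampus in a subtype and higher in another without overlap. The share of all genes that did so was not counted, and the difference between the subtypes was not tested.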

How the results depend on the processing

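Every member called by edgeR as the report gives it was lower, and none of them changed direction: over the alternatives, the values of the 13 calls kept their call in 118 cases and lost it in 21. The number of members called moved with the tool. DESeq2 called 2 members in AST4, 9 in mural cells, 16 in endothelial cells and 13 in neurons, all lower, where it called 8.3%, 22%, 31% and 28% of all genes lower. In AST5 it called 9 (7 lower and 2 higher, 42% and 1.7% of all genes). Limma on mean log values called 25, 23 and 22 in the 3 classes, all lower (17.5%, 18.0% and 13.5% of all genes lower), 5 in AST4 (4 lower and 1 higher, 1.65% and 11.4% of all genes) and 15 in AST5 (12 lower and 3 higher, 14.9% and 4.62%). With the other subtypes weighted equally, so that AST5 with its genes without reads weighs as much as any, 3 members were called in AST1, 4 in AST2 and 5 in AST3, all higher, with 5.52%, 5.09% and 4.95% of all genes higher. Without the AST5 sums 7 were called in AST4, and with astrocyte and mural sums alone 12 in mural cells, both added after the data were seen. With a suspension left out the counts were 0 to 1 in AST4 (1 without 1H), 5 to 8 in AST5, 1 to 3 in mural cells (1 without 1C), 1 to 4 in endothelial cells (1 without 1C, 4 without 2H) and 1 to 2 in neurons (1 without 2H); a lone sum of a class was then assumed to vary like the others. Of all genes 0.0846% to 0.519% were lower in these fits in AST4, 7.23% to 12% in AST5, 0.628% to 1.01% in mural cells, 0.817% to 1.91% in endothelial cells and 1.09% to 2.29% in neurons, where with every suspension these were 0.527%, 16.6%, 12.7%, 4.02% and 2.65%. With the suspension as replicate block 6 members were called in AST5 and 2 each in mural, endothelial and neuronal cells, and 12.3%, 1.32%, 1.15% and 1.62% of all genes were lower; the call of Insig1 in mural cells was lost (adjusted p up to 0.140 over its alternatives), and no other call changed. With library size alone, added after the data were seen, 6 members lay below AST1 to AST3 in AST4, 3 above them in AST5 and 2 above astrocytes in neurons. Insig1 in mural cells was also lost with no filter on low counts. The cause of these moves was not tested. Depth per cell was high, and the few cells of AST5 and of the classes other than astrocytes limit the precision, so a member not called in them is not shown to be equal.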
